A study of Saccharomyces cerevisiae with 4 samples.

Results

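The cell wall integrity (CWI) pathway of *Saccharomyces cerevisiae* starts with sensor proteins that span the plasma membrane and carry an extracellular, heavily O-mannosylated stretch rich in serine and threonine. Under wall stress the sensors stimulate guanine nucleotide exchange factors (GEFs), which load the small GTPase Rho1p with GTP, and Rho1p in turn activates the protein kinase Pkc1p and the MAP kinase module that ends in Slt2p. Rho1p also serves as a regulatory subunit of the β-1,3-glucan synthase. The 10 genes of this upstream part are the sensor genes *WSC1*, *WSC2*, *WSC3*, *WSC4*, *MID2* and *MTL1*, the GEF genes *ROM1*, *ROM2* and *TUS1*, and *RHO1*. They were chosen by name from 5656 genes that the platform annotation pairs with a probe set of their own (*WSC1* is listed there as *SLG1*), and the brightest probe set stood for each gene. All 10 were measured and all passed the filter on dim genes, a mean signal of at least 33.6.

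Total RNA was labelled and hybridised to 4 Affymetrix arrays of the Yeast Genome S98 design, 1 sample each. The wild type (wt) SEY6210 is a haploid *MAT*α laboratory strain with auxotrophic markers, and the mutant MEY12A carries *ccw12::URA3* in the same background, here written *ccw12*Δ. Both strains were grown in YPD with adenine to an OD600 of 1, and each of the 2 arrays per strain received cRNA from its own pool of 3 RNA preparations made without any added stress. *CCW12* codes for an abundant mannoprotein of the cell wall, so that the comparison asks how the genes of the sensors and of Rho1p regulation are transcribed when the gene of this wall component is disrupted. Signals are the linear values as deposited, scaled for each array by the authors.

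Both wt arrays carried high *CCW12* signals, 24313.5 and 24118.1, and the *ccw12*Δ arrays 4260.3 and 3919.0, or 0.169-fold. The signal in *ccw12*Δ was still 27.1 and 30.2 times the median signal of its array, and what the probe set measures there was not tested. *URA3*, the marker of the disruption, had signals of 3.9 and 6.7 in wt and 59.5 and 54.2 in *ccw12*Δ. The description of wt replicate 2 names another strain, SEY6211, and the source of the mutant samples SEY6219, whereas titles and strain entries give SEY6210 and MEY12A. On wt replicate 2 the signal for *MF(ALPHA)2*, an α-factor gene of *MAT*α cells, was 8124.2 beside 9246.5 in replicate 1. The median signals of the arrays lay between 118 and 144. The wt arrays differed from each other with an SD of the log2 difference of 0.64 over 5114 genes, and the *ccw12*Δ arrays with 0.47. The control probe sets for *ACT1* gave a 3′ to 5′ signal ratio of 2.99 on wt replicate 1 against 1.38 to 1.49 on the other arrays. For *SRB4* this ratio was 9.82 against 2.20 to 3.52, and for *SPT15* it was 7.12 against 2.87 to 3.69. On chromosomes II, IX and X the median log2 fold change over 854 genes was 0.98, and on the other chromosomes it was 0.10 over 4260 genes. None of the 10 genes lies on II, IX or X.

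None of the sensor and GEF genes, nor *RHO1*, differed between *ccw12*Δ and wt by the limma test across all genes (2 arrays per strain, adjusted p between 0.194 and 0.958). Over all 5114 genes tested, 2.70% were higher and 0.313% lower in *ccw12*Δ at an adjusted p under 0.05, 3.01% in all. Outside chromosomes II, IX and X the shares were 0.469% and 0.305%, 0.775% in all, so that no call among 10 genes is close to that background. At an unadjusted p under 0.05 from limma, 1 of the 10 was lower (*WSC4*) and none was higher, beside 20.6% of all genes in either direction and 3.48% that were lower. None reached a mean ratio of 2-fold with all 4 mutant-to-wt ratios in 1 direction, a rule met upwards by 10.4% and downwards by 2.05% of all genes, 12.5% in all. The median log2 fold change of the 10 genes was 0.14, that of all genes tested 0.19.

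**Figure D1:**
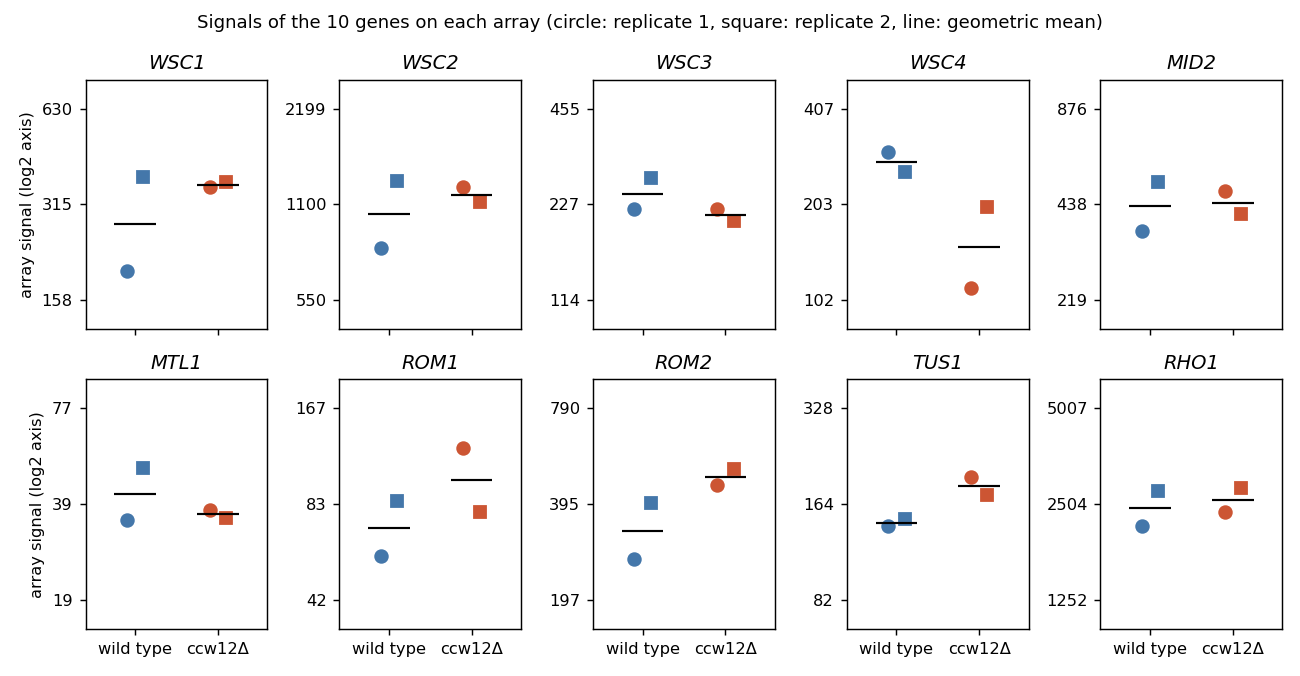
Signal of each of the 10 genes on each array (vertical axis, array signal on a log2 scale that spans the same fold range in each panel), for wild type in blue and *ccw12*Δ in red, with circles for replicate 1, squares for replicate 2 and lines for the geometric mean of each strain. The strains do not overlap for *WSC4*, *ROM2* and *TUS1*; for *WSC1* the wild-type circle, 194.4, stands apart from the other 3 signals, which lie between 356.6 and 383.3.

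*WSC1* codes for the sensor with the broadest known role in vegetative growth and heat stress. Its signals were 194.4 and 383.3 in wt and 356.6 and 371.4 in *ccw12*Δ. Both mutant signals lay inside the range of the wt signals, and the spread of the gene came from wt replicate 1. The log2 fold change was 0.41 (95% interval -0.43 to 1.26, adjusted p = 0.561 from limma). Without wt replicate 1 it was -0.07, and without wt replicate 2 it was 0.90. A fit with 1 array left out has a single replicate pair to measure the spread, and assumes that the lone array varies like that pair.

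*WSC2* and *WSC3* code for closely related sensors that share functions with *WSC1*. *WSC2* had signals of 803.2 and 1305.7 in wt and 1247.0 and 1118.0 in *ccw12*Δ, so that both mutant signals fell between the wt signals. Its log2 fold change was 0.21 (95% interval -0.54 to 0.95, adjusted p = 0.752 from limma), which turned to -0.04 with arrays centred on their medians and to -0.15 without wt replicate 1. *WSC3* had signals of 219.4 and 275.2 in wt and 219.6 and 201.4 in *ccw12*Δ, and the strains overlapped. The log2 fold change of *WSC3* was -0.22 (95% interval -0.86 to 0.41, adjusted p = 0.686 from limma). For both genes the interval of the fit with all arrays excludes a 2-fold change in either direction.

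*WSC4* had the largest difference of the 10 genes and the only one whose 95% interval excluded 0. Its product belongs to the Wsc family by sequence but is known mainly from the membrane of the endoplasmic reticulum, where it takes part in protein translocation. Signals were 297.5 and 257.8 in wt and 111.6 and 200.3 in *ccw12*Δ. Both *ccw12*Δ arrays lay below both wt arrays, which was the case for 14.8% of all genes tested and 17.2% of those outside chromosomes II, IX and X. The mutant arrays also differed most between replicates here, with replicate 1 at 0.557 of replicate 2. The log2 fold change was -0.89 (standard error 0.34, 95% interval -1.68 to -0.09), or 0.540-fold, with 4 single ratios from 0.375 to 0.777. The adjusted p from limma was 0.194 (unadjusted p = 0.0329), and *WSC4* did not pass. Of all genes tested, 3.21% had a log2 fold change as low as or lower than that of *WSC4*. The size hung on *ccw12*Δ replicate 1: without it the log2 fold change was -0.47, and without *ccw12*Δ replicate 2 it was -1.31. Without wt replicate 1 the log2 fold change was -0.79, and without wt replicate 2 it was -0.99.

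The 3 genes outside the group whose course over the 4 arrays was most like that of *WSC4* were *DAD2*, *EFG1* and *GAD1*, with root-mean-square distances of 0.05, 0.06 and 0.11 between the log2 signals centred on each gene's mean. *DAD2* codes for a subunit of the Dam1 complex of the kinetochore, *EFG1* for a factor of ribosomal RNA processing and *GAD1* for glutamate decarboxylase. All 3 shared with *WSC4* a low signal on *ccw12*Δ replicate 1. For *EFG1* the signals were 1325.4 and 1249.0 in wt and 528.8 and 996.8 in *ccw12*Δ. None of the 3 passed the limma test (adjusted p between 0.239 and 0.315), and likeness over 4 arrays is a description only.

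*MID2*, which codes for a sensor of the other structural family and is needed for survival during mating, was among the flattest of the 10 genes. Its signals were 362.3 and 516.6 in wt and 480.9 and 408.4 in *ccw12*Δ, with both mutant signals between the wt signals. The fold change was 1.02 (95% interval 0.629 to 1.67, adjusted p = 0.958 from limma). The log2 fold change of 0.03 had no stable sign, with -0.21 when arrays were centred on their medians, -0.22 without wt replicate 1 and 0.29 without wt replicate 2. *MTL1*, the paralog of *MID2*, was dim, with signals of 34.5 and 50.2 in wt and 37.0 and 34.9 in *ccw12*Δ, close to the level of 33.6 under which genes were left out. No signal of *MTL1* can be taken as shown above background, since detection calls were not used, and its log2 fold change of -0.21 (95% interval -1.14 to 0.72, adjusted p = 0.80 from limma) is read with that limit.

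The 3 GEF genes had positive log2 fold changes in the fit with all arrays, where none passed. They also had them under each alternative that tested them and could change these values. In the fit with all arrays, 3315 of the 5114 genes tested had positive values. *ROM2* codes for the main GEF of Rho1p in CWI signalling. Its signals were 265.7 and 397.0 in wt and 454.2 and 507.8 in *ccw12*Δ, so that both mutant arrays lay above both wt arrays. The log2 fold change was 0.56 (standard error 0.31, 95% interval -0.15 to 1.28, adjusted p = 0.352 from limma), or 1.48-fold. Without wt replicate 1 the log2 fold change was 0.27, and without wt replicate 2 it was 0.85.

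*ROM1*, the paralog of *ROM2*, had signals of 57.2 and 85.4 in wt and 125.4 and 78.6 in *ccw12*Δ. The strains overlapped, and *ccw12*Δ replicate 1 stood above the other 3 arrays. The log2 fold change was 0.51 (95% interval -0.36 to 1.37, adjusted p = 0.489 from limma). *TUS1* codes for the GEF that acts on Rho1p at the bud neck during cytokinesis. It had signals of 139.8 and 147.8 in wt and 200 and 175.5 in *ccw12*Δ, again without overlap, and was the steadiest of the GEF genes between the wt arrays. Its log2 fold change was 0.38 (95% interval -0.24 to 1.00, adjusted p = 0.461 from limma), with 0.34 without wt replicate 1 and 0.42 without wt replicate 2. Another 5 probe sets name *TUS1*, with signals between 1.5 and 85.6. Of these, 2 had a positive and 3 a negative log2 ratio, from -1.38 to 1.07. The 3 negative ones had mean log2 signals under the filter level, and those of the 2 positive ones lay above it. Of the 10 genes, 2 (*ROM2* and *TUS1*) had both mutant arrays above both wt arrays, whereas 37.7% of all genes tested did, and 28.6% of those outside chromosomes II, IX and X.

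*RHO1*, essential for growth, had signals of 2145.3 and 2756.8 in wt and 2367.4 and 2805.8 in *ccw12*Δ, and the strains overlapped. Its log2 fold change of 0.08 (95% interval -0.52 to 0.68, adjusted p = 0.883 from limma) fell on the other side of 0 with arrays centred on their medians (-0.16). In fold terms the interval ran from 0.699 to 1.61. A 2-fold change in either direction lay outside the 95% interval for 4 genes (*WSC2*, *WSC3*, *MID2* and *RHO1*). A 2-fold rise alone lay outside it for 6, which adds *WSC4* and *MTL1*, and a 2-fold fall alone for 8, that is, for all but *WSC4* and *MTL1*. The exclusion in both directions held under 14 of 16 alternative settings for *MID2* and *RHO1*, 13 for *WSC2* and 11 for *WSC3*, and for each of these genes it was lost without either *ccw12*Δ array. For *WSC2* it was also lost without wt replicate 2 (upper bound 1.12 on the log2 scale). The lower bound for *WSC3* was -1.10 after quantile normalization, -1.12 with median-centred arrays and -1.01 without wt replicate 1. These intervals are per gene, are not adjusted for their number and rest on 2 arrays per strain, so that smaller changes could not be detected.

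**Figure D2:**
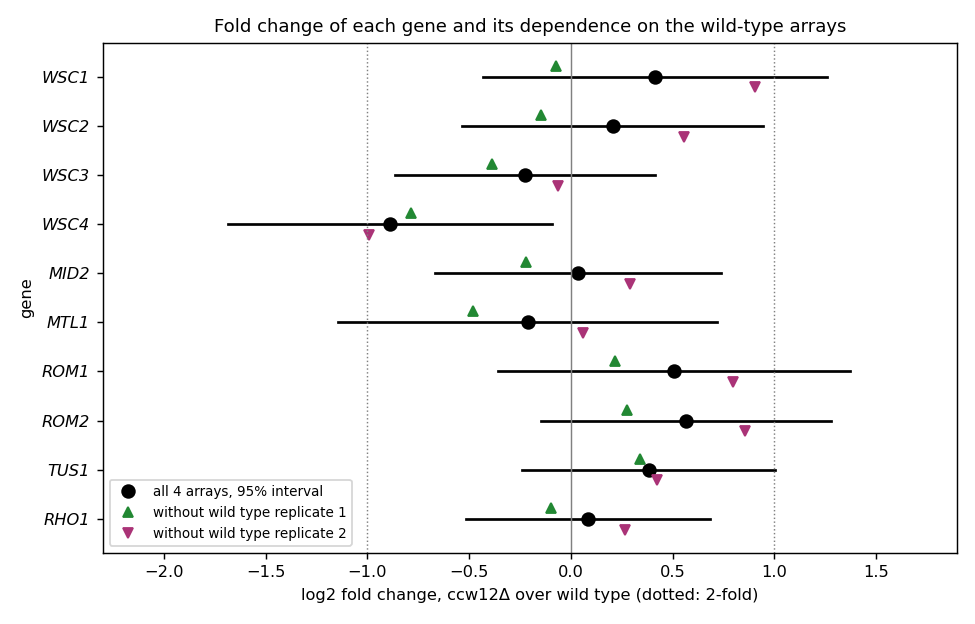
Log2 fold change of *ccw12*Δ over wild type (horizontal axis) for each of the 10 genes, with the 95% interval of the limma fit to all 4 arrays (black), and the value without wild type replicate 1 (green) or without wild type replicate 2 (purple). The interval of *WSC4*, from -1.68 to -0.09, is the only one that leaves out 0; leaving out wild type replicate 1 places 7 of the 10 values below 0, and leaving out wild type replicate 2 places 2 of them there.

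How the 10 genes compared with wt depended on which wt array was used. Wt replicate 1 had the lowest signal of the 4 arrays for 8 of the 10 genes, all but *WSC3* and *WSC4*, and this was the case for 42.4% of all genes tested. It lay under wt replicate 2 for 9 of the 10, beside 55.3% of all genes. On wt replicate 2, all 6 sensor genes lay at or above both *ccw12*Δ arrays, and the GEF genes *ROM2* and *TUS1* lay below both. The share of all genes in these positions was not taken, and whether sensor and GEF genes differ was not tested. Without wt replicate 1 the median log2 fold change was -0.30 for the sensor genes and 0.27 for the GEF genes, and without wt replicate 2 it was 0.17 and 0.80, so that the sign of the sensor median turned with the array left out. Over the 10 genes the median was -0.12 without wt replicate 1 and 0.36 without wt replicate 2. The median of all genes moved less, to 0.14 and 0.25. The higher 3′ to 5′ ratios of wt replicate 1 move with these values, and their part in them was not tested.

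**Figure D3:**
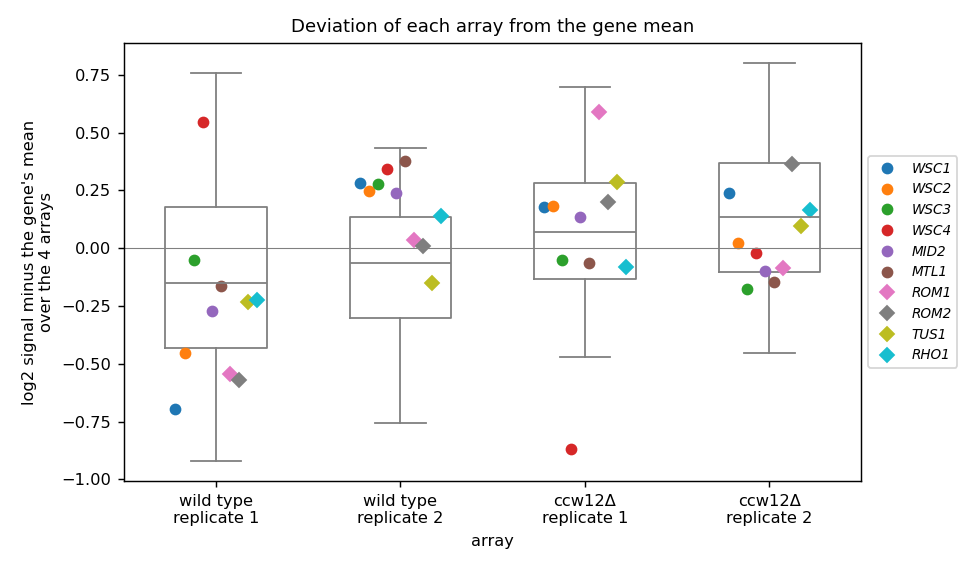
Log2 signal of each gene minus its own mean over the 4 arrays (vertical axis) on each array (horizontal axis), with circles for the sensor genes, diamonds for the GEF genes and *RHO1*, and boxes for the quartiles of all 5114 genes tested (whiskers from the 5th to the 95th percentile). On wild type replicate 2 the 6 sensor genes lie between 0.24 and 0.38, above the upper quartile of 0.13, and on *ccw12*Δ replicate 1 *WSC4* lies at -0.87.

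Other genes of the pathway were read beside these, in lists written from general knowledge. Of 51 such genes 49 were tested, and 4 of them were higher in *ccw12*Δ by limma, none was lower and 45 did not pass (median log2 fold change 0.34). The 4 count 8.16% of the tested genes beside a background of 2.70%, but 3 of them lie on chromosomes II, IX and X, where 118 of 854 genes were higher. The number of higher genes was 0 after each chromosome was centred, 0 with arrays centred on their medians, and 0 without the filter on dim genes.

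Of the genes that act directly on Rho1p by switching it off or holding it in the cytosol, the GTPase-activating proteins (GAPs) and the dissociation inhibitor (GDI), 4 of 5 were tested and none passed. *RDI1*, the GDI gene, had signals of 281.9 and 543.2 in wt and 468.8 and 665.6 in *ccw12*Δ (log2 fold change 0.51, adjusted p = 0.496 from limma). *SAC7*, a GAP gene, had 107.5 and 172.1 in wt and 188.9 and 177.4 in *ccw12*Δ (log2 fold change 0.43, adjusted p = 0.490 from limma). As for the GEF genes, wt replicate 1 was the lowest array for these, in 4 of 4 cases. Without wt replicate 1 the log2 fold change was 0.0403 for *RDI1* and 0.0891 for *SAC7*. Without wt replicate 2 it was 0.99 for *RDI1* and 0.77 for *SAC7*. The median log2 fold change of the list was 0.41 with all arrays.

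Of 6 genes for effectors of Rho1p none passed either, with a median log2 fold change of 0.22. *PKC1*, on chromosome II, had signals of 109.6 and 155.5 in wt and 219.8 and 215.1 in *ccw12*Δ, or 0.74 as a log2 fold change (standard error 0.29, adjusted p = 0.205 from limma), which became -0.19 when each chromosome was centred. Without wt replicate 1 it was 0.48, and without wt replicate 2 it was 0.99. *GSC2*, which codes for the stress-induced subunit of glucan synthase, had 472.4 and 526.2 in wt and 630.7 and 643.7 in *ccw12*Δ (log2 fold change 0.35, adjusted p = 0.506 from limma). Another 6, dimmer probe sets name *GSC2*, with log2 ratios from -0.16 to 1.42, 5 of them positive, and the mean over all its probe sets gave 0.84 (adjusted p = 0.415 from limma).

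Downstream of Rho1p, 1 of 7 tested genes of the MAP kinase module and its transcription factors was higher. This was *BCK1*, the MAP kinase kinase kinase gene on chromosome X, with signals of 153.3 and 148.0 in wt and 479.0 and 474.0 in *ccw12*Δ (log2 fold change 1.66, standard error 0.26, adjusted p = 0.0325 from limma). After each chromosome was centred it was 0.59 and did not pass (adjusted p = 0.415 from limma). Of 10 wall genes known to respond to CWI signalling, 2 were higher and 8 did not pass, with a median of 0.69. *NCW2*, on chromosome XII, codes for a GPI-anchored wall protein and had signals of 402.6 and 495.6 in wt and 1523.4 and 1371.1 in *ccw12*Δ (log2 fold change 1.69, standard error 0.28, adjusted p = 0.0358 from limma). *PRM5*, on chromosome IX, is a pheromone-regulated gene also induced by CWI signalling. Signals of *PRM5* were 405.1 and 395.0 in wt and 1157.0 and 1205.1 in *ccw12*Δ, or 1.56 as a log2 fold change (standard error 0.27, adjusted p = 0.0383 from limma). With centred chromosomes *NCW2* stayed at 1.57 (adjusted p = 0.0598 from limma) and *PRM5* came to 0.65 (adjusted p = 0.392). The list was written with the study's own gene tables known, and its direction is therefore no independent evidence. Whether the wall genes differed more than the sensor genes was not tested.

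The lists next to the sensors were mixed. Of 9 genes of phosphatidylinositol 4,5-bisphosphate synthesis and of the TORC2 kinase complex with associated kinases and targets, none passed (median 0.00). This lipid recruits Rom2p to the plasma membrane. *SLM1*, on chromosome IX, codes for a lipid-binding target of TORC2 and had a log2 fold change of 1.17, and *TOR2*, the kinase gene of TORC2, had 0.43 (adjusted p = 0.0868 and 0.437 from limma). With centred chromosomes *SLM1* was at 0.26 (adjusted p = 0.747 from limma). Its log2 fold change was 1.39 without wt replicate 1 and 0.96 without wt replicate 2. Of 6 genes for partners and modifiers of the sensors, 1 was higher. *SLA1*, on chromosome II, codes for the endocytic adaptor that binds Wsc1p, and had signals of 434.6 and 520.3 in wt and 1206.4 and 1256.6 in *ccw12*Δ (log2 fold change 1.37, standard error 0.27, adjusted p = 0.0462 from limma). With centred chromosomes *SLA1* was at 0.44 (adjusted p = 0.485 from limma). None of *BCK1*, *NCW2*, *PRM5* and *SLA1* passed with either *ccw12*Δ array left out (adjusted p between 0.0569 and 0.308 from limma).

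**Figure D4:**
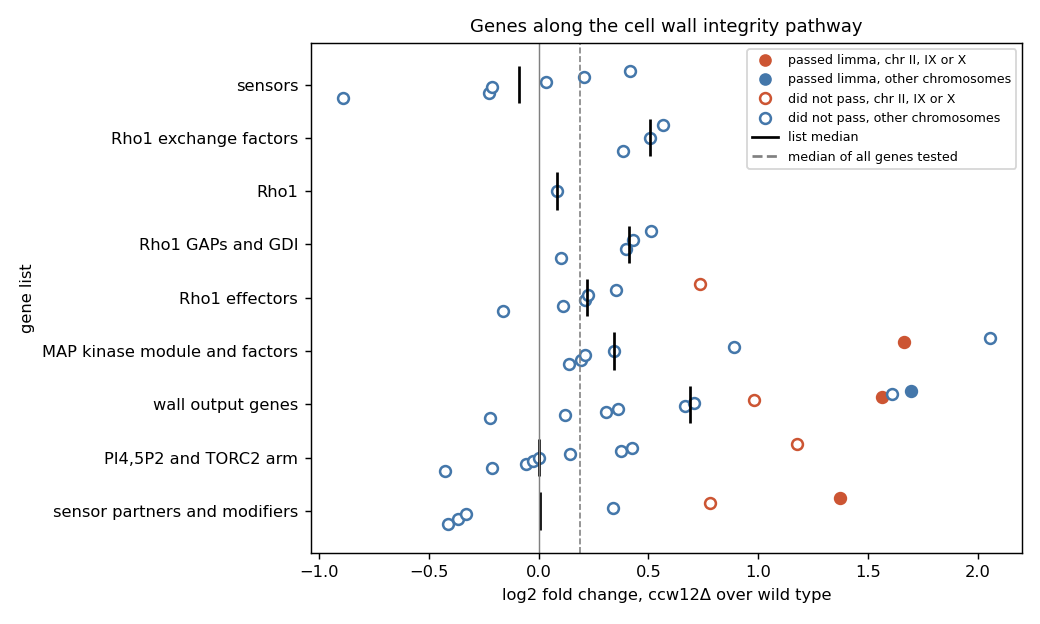
Log2 fold change of *ccw12*Δ over wild type (horizontal axis) for each tested gene of 9 lists along the CWI pathway (vertical axis), filled where the gene passed limma and red where it lies on chromosomes II, IX or X, with black lines for list medians and a dashed line for the median of all genes tested, 0.19. All sensor genes, GEF genes and *RHO1* are open symbols, and the 4 filled ones are *BCK1*, *NCW2*, *PRM5* and *SLA1*.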

How the data were processed

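The starting values were 1 linear signal intensity per probe set and array, deposited by the authors, who used GCOS for this step. MAS5 is named in the submitters' processing notes; version and scaling target are not given in the sources used here. Of 9335 probe sets 60 were controls. Of the others, 6504 name 1 gene, 328 several and 2443 none. Names and chromosomes came from the RefSeq table of assembly R64. No coordinates or sequences were used. The 19 zero signals were raised to 0.1 before log2. Genes whose mean log2 signal lay under the 25th percentile of all probe sets other than controls (5.07) were left out, and 5114 of 5656 were tested with limma 3.58.1 in R 4.3.3 (lmFit, eBayes with a trend, 2 residual and 5.59 prior degrees of freedom), with Benjamini-Hochberg adjustment over all of them and a threshold of 0.05. Replicates are separate pools of RNA. With 2 arrays per strain an exact two-sided permutation test of 1 gene cannot go below p = 0.333, and the number of arrays limits the precision. The Present and Increase or Decrease calls of the methods were not used here.

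The 10 genes and the lists were chosen with earlier results of these data known. One list, which counts in the total of the other pathway genes, is not reported here on its own. Genes named beside the 10 were, for each list, those that passed (at most 4) or else the 2 with the largest difference, the 3 most like *WSC4*, and the checks of the strains. *KDX1* and *SLT2* were named in addition, as the genes of their list with the largest differences outside chromosomes II, IX and X. The alternatives were quantile normalization, 3 ways of centring, 2 other filters, an offset of 7.2, the mean over probe sets, eBayes without the trend, a replicate block and each array left out. A crossed block and a filter at the 25th percentile of single-gene probe sets were chosen after seeing the data. Simulated data with known changes were used to test the fit. The plots used matplotlib 3.10.9 (Python 3.11.15).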

Additional observations from a re-analysis of the deposited data

How the results depend on the processing

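Over 16 alternative settings, 138 of 156 log2 fold changes of the 10 genes kept their sign and their side of the threshold in limma. *ROM1*, *ROM2*, *TUS1*, *WSC3* and *WSC4* kept their sign in each setting that tested them. A log2 fold change stays the same with other filters, a replicate block or eBayes without the trend. For a gene with 1 probe set, the mean over probe sets leaves it the same too. Kept signs in those settings were fixed in advance. With arrays centred on their medians, *MID2* was at -0.21, *RHO1* at -0.16 and *WSC2* at -0.0396; centred on genes outside chromosomes II, IX and X, *MID2* was at -0.10 and *RHO1* at -0.0501, and with centred chromosomes at -0.0847 and -0.0728. After quantile normalization *MID2* was at -0.13. With 1 array left out, the log2 fold changes ran from -0.22 to 0.29 for *MID2*, from -0.10 to 0.26 for *RHO1*, from -0.0748 to 0.90 for *WSC1*, from -0.15 to 0.56 for *WSC2* and from -0.48 to 0.0588 for *MTL1*, in each case with wt replicate 1 or 2 out at the ends. In each setting that kept all arrays, none of the 10 genes was called higher or lower. Calls of the 10 genes with an array left out are not given, since 1 pair of arrays sets the spread there. The fold rule took in 1 gene (*WSC4*) with either centring of whole arrays and after quantile normalization, and 0 to 1 with an array left out. The median of the 10 genes ran from -0.12 to 0.36 with an array left out.

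Over all genes, 138 were higher and 16 lower. The higher count was 29 (8 lower) with arrays centred on genes outside chromosomes II, IX and X, 26 on medians, 8 with centred chromosomes, 72 after quantile normalization, 78 without the trend, 220 with the filter at the 50th percentile, 33 (6 lower) without the filter and 240 (27 lower) with the filter on single-gene probe sets. With an array left out, 31 to 1030 were higher and 7 to 457 lower. Such fits take the spread from 1 pair of arrays. Of the other pathway genes, 4 were higher; this count was 0 in all 3 ways of centring and without the filter, and with an array left out 0 to 15 were higher and 0 to 2 lower. The 50th percentile left out *ROM1* and *MTL1*, and the mean over probe sets left out *TUS1*.

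Replicate numbers are shared by the strains, but the deviations of same-numbered arrays correlated at -0.13 over 5114 genes (2 pairs), and the arrays were taken to share only a number. With the replicate block 332 genes were higher and 40 lower, and 7 of the other pathway genes were higher; with the numbers crossed, 351, 49 and 7. No gene of the 10 was called with the replicate block or with crossed numbers.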
